A study of Mus musculus and Homo sapiens with 18 samples.

Results

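Transcripts of 10 genes used as markers of alternatively activated macrophages, Retnla, Chil3, Arg1, Mrc1, Cd163, Clec10a, Mgl2, Il4ra, F13a1 and Folr2, were followed through RNA-seq of mouse lens, of lens progenitor-like cells grown from mouse neural stem cells (NLPCs) and of the human lens epithelial line HLE-B3. The genes were taken by symbol from the count tables: 10 of 46882 symbols in the lens table, 10 of 54838 genes in the NLPC table, and 6 of 60880 genes in the HLE-B3 table, where ARG1, MRC1, CD163, CLEC10A, F13A1 and FOLR2 are listed in upper case and RETNLA, CHIL3, MGL2 and IL4RA are not. The list was drawn up with the deletion-against-control differences of these same files known. The members' own differences are therefore given as description, with no test.

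Macrophages exposed to the type 2 cytokines IL-4 and IL-13 take up a state called alternative activation. Both cytokines signal through a receptor that contains the IL-4 receptor alpha chain and act through the transcription factor STAT6, and mouse macrophages then make the secreted proteins RELM-alpha and Ym1, the enzyme arginase 1 and a set of lectins and scavenger receptors. The mature lens itself has no blood vessels, and macrophages lie in the tissues around it.

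The series holds 18 libraries in 6 groups of 3. Control lenses (Ctrl) came from Nestin-CreERT2; QkL/+ mice and knockout lenses (Qk-iCKO) from Nestin-CreERT2; QkL/L mice, all C57BL/6 and collected at P17 to P19. By these genotypes every animal, controls included, carried the Cre. The authors' methods also name Nestin-CreERT2; Qk+/+ mice and QkL/L mice without the Cre as controls, and do not say which were sequenced. All animals received 20 µL of tamoxifen at 10 mg/mL under the skin on P7 and again on P8. The Nestin promoter that drives the Cre is active in cells of ectodermal origin. The NLPCs were grown from neural stem cells of newborn Nestin-CreERT2; QkL/L brains with Noggin for 6 days and then bFGF, BMP4 and BMP7 for 12 days, and Qk-/- NLPCs received 100 nM 4-hydroxytamoxifen; what the WT NLPCs received is not given in the sources used here. HLE-B3 cells were compared as WT and as QKI KO cells made with CRISPR-Cas9. The labels do not say whether libraries of one cell group were separate cultures, so errors and p-values measure the spread between these libraries, which may be technical.

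The lens libraries held 10319320 to 16425331 counts, the NLPC libraries 28154202 to 68243360 and the HLE-B3 libraries 69190864 to 81384471. Qk itself stood at 116 to 127 CPM (counts scaled to the TMM-adjusted library size) in Ctrl lenses and 86.9 to 106 CPM in Qk-iCKO lenses. Counts over the whole gene take no account of the floxed exon, and in the libraries labelled Qk-/- NLPC the gene was higher (3088 to 3599 CPM) than in WT NLPCs (2444 to 2675 CPM), against the label. QKI stood at 257 to 263 CPM in WT and 100.2 to 105 CPM in QKI KO HLE-B3 cells. Crystallins and other lens genes were abundant in all lens libraries except Lim2, listed at 0 or 1 counts in each, so a 0 in this table may also be a gene that the counting missed. In NLPCs 3 of 9 lens markers passed the filter on low counts, and Cryaa was at 0 to 18 counts. Among the lens libraries Qk-iCKO lens 1 stood apart, with a mean correlation of 0.877 to the others against 0.904 to 0.920 and a TMM factor of 1.48 against 0.888 to 0.962. It also had the highest summed level of 7 pigmented epithelium markers (115 CPM against 2.75 to 12.1 CPM), while 6 retina markers were highest in Ctrl lens 2 (337 CPM against 1.24 to 57.9 CPM). Summed counts of 4 Y-linked genes were 0 to 3 in the Ctrl lenses and in Qk-iCKO lens 1, and 101.7 and 93.9 CPM in Qk-iCKO lenses 2 and 3. The part of tissue carried along at dissection and of sex in the lens results was not tested.

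All 10 genes were higher in every Qk-iCKO lens than in every Ctrl lens. Summed over the 10, the level was 3.89, 3.42 and 3.29 CPM in Ctrl lenses 1 to 3 and 1019, 753 and 761 CPM in Qk-iCKO lenses 1 to 3, a ratio of group means of 239. In raw counts this was 143 against 31916 over the 3 libraries of each group. Of the 12201 genes tested in the lens, 12.3% were called at an adjusted p under 0.05 by edgeR's quasi-likelihood test (8.38% higher and 3.88% lower) and 35.3% had groups that did not overlap. All 10 members were among those called higher and those not overlapping, which the choice of members fixes. Over the 10 members the median fitted log2 fold change was 6.88, also with the 2 genes at 0 in the Ctrl lenses set at their lower bounds, beside 0.0064 over all genes tested. No Ctrl lens had more than 20 counts of any member and no Qk-iCKO lens fewer than 25. In bulk tissue, more cells that carry a transcript and more transcript per cell cannot be told apart.

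**Figure D1:**
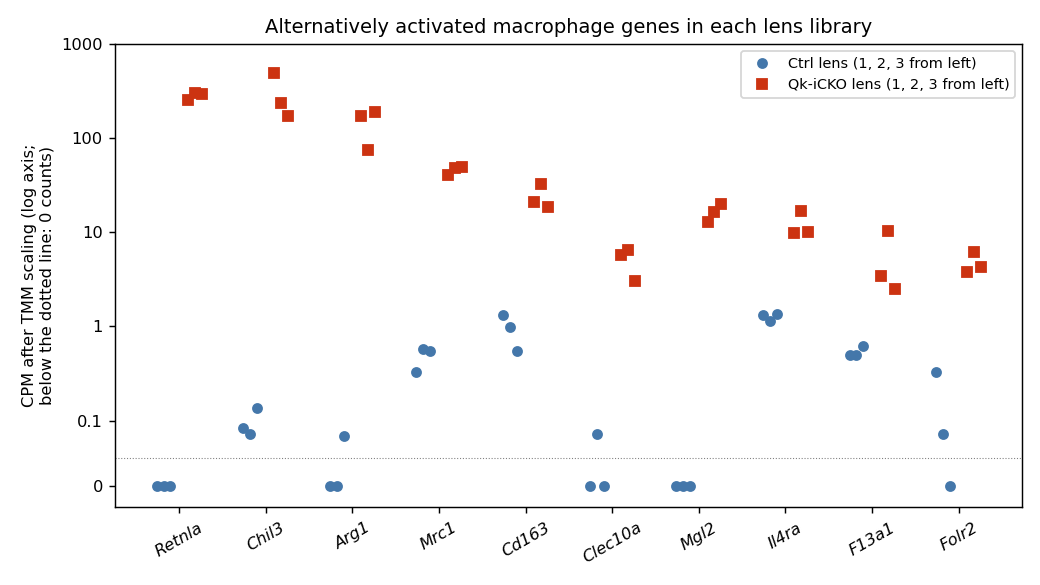
CPM after TMM scaling, on a log axis, of the 10 genes in each Ctrl lens (blue circles) and Qk-iCKO lens (red squares), with libraries 1, 2 and 3 of each group from left to right and 0 counts drawn below the dotted line. For every gene the 3 Qk-iCKO lenses lie above the 3 Ctrl lenses, and Retnla and Mgl2 are at 0 in all Ctrl lenses.

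Retnla encodes RELM-alpha (also FIZZ1), a small secreted protein that macrophages produce in quantity in response to IL-4. Its gene lies on chr16:48842551-48844461 (GRCm38, plus strand). It had 0 counts in all 3 Ctrl lenses and 4124, 3136 and 2908 counts in Qk-iCKO lenses 1 to 3, or 283 ± 26.7 CPM (SD, n = 3). With the Ctrl group set at a floor of 3 counts over its 3 libraries, the level was at least 3773-fold higher. The 3 Qk-iCKO lenses lay within 1.20-fold of each other, the narrowest spread of the 10 genes.

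Retnla was also the one member whose promoter held letters of the motifs searched. RefSeq promoter windows of GRCm38.p6 were at hand for 8 of the 10 genes (10 windows, with 2 each for F13a1 and Folr2), and none for Arg1 and Clec10a. The 250 bases before the start were searched on both strands for TTC and GAA with 4 bases between them, the spacing that STAT6 prefers, for TTGCNNAA, a C/EBP motif, and for GAGGAAGT, a PU.1 motif. Over 32851 mouse promoter windows of the same length, 5.85% held the first, 9.56% the second and 2.44% the third. The Retnla window held all 3 without overlap: the STAT6 spacing 145 to 136 bases before the start, the C/EBP motif 134 to 127 bases before it, and the PU.1 motif, on the opposite strand, 198 to 191 bases before it. These distances run from the RefSeq start, which lies inside the gene as GENCODE places it, and not from the end of the sequence printed below. The other 9 member windows held none, which says only that these letters are not in those windows. The sequences of the 3 members with a window and at most 4 counts over the Ctrl lenses are shown, 5′ to 3′ on the gene's strand and without bases that GENCODE places inside the gene, with the matched letters in capitals.
Retnla, chr16:48842359-48842550, plus strand: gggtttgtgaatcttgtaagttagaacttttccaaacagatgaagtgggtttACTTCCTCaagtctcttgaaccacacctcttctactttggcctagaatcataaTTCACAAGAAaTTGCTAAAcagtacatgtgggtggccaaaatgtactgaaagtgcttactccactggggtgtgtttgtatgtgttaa
Chil3, chr3:106167565-106167814, minus strand: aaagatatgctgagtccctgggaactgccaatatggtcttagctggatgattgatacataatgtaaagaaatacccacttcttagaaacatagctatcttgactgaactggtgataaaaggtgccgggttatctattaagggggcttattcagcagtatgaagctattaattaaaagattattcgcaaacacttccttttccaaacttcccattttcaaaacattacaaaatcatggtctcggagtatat
Mgl2, chr11:70130107-70130328, plus strand: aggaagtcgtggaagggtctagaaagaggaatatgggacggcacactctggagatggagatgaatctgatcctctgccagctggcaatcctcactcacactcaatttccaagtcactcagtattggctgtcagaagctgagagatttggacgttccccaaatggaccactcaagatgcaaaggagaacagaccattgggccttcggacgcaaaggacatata
A match is a description of the sequence and not a measured binding site.

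Chil3 (chr3:106147554-106167564, minus strand) encodes Ym1, a secreted chitinase-like protein without chitinase activity. It had 1, 1 and 2 counts in the Ctrl lenses and 8068, 2462 and 1694 counts in the Qk-iCKO lenses. The Qk-iCKO level was 301.5 ± 171.0 CPM, the highest CPM of the 10, and Qk-iCKO lens 1 stood 2.89-fold above Qk-iCKO lens 3. The ratio of the group rates was 3402, with an exact 95% counting interval of 1328 to 12486 that reflects the 4 control counts. Chil4, which encodes the near copy Ym2, was at 0 in the Ctrl lenses and at 30, 12 and 4 counts in the Qk-iCKO lenses. The longest transcripts of Chil3 and Chil4 were 94.4% identical over 1538 aligned bases, with an identical run of 136 bases, so reads of the pair may have been split or dropped and the share of each is uncertain.

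Arg1 (chr10:24915221-24927484, minus strand) encodes arginase 1, which hydrolyses arginine and so competes with nitric oxide synthase for its substrate. It had 0, 0 and 1 counts in the Ctrl lenses and 2826, 765 and 1862 counts in the Qk-iCKO lenses, or 145 ± 62.0 CPM. The ratio of rates was 6070, with a counting interval of 1089 to 239784. Qk-iCKO lens 2 was the low library of its group, 2.54-fold below Qk-iCKO lens 3. Arg2, the mitochondrial arginase, stayed at 0 or 1 counts in all 6 libraries. Retnla, Chil3 and Arg1 together made up 86.5% of the summed mean CPM of the 10 genes in Qk-iCKO lenses.

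The lectins and the scavenger receptor were lower in level than these. Mrc1 (chr2:14229392-14332057, plus strand) encodes the mannose receptor CD206, which binds and takes up mannosylated glycoproteins. It had 4, 8 and 8 counts in the Ctrl lenses and 663, 499 and 490 counts in the Qk-iCKO lenses. In CPM this was 0.484 ± 0.132 against 46.2 ± 4.77, a fitted log2 fold change of 6.53 ± 0.23 (SE), and the Qk-iCKO lenses lay within 1.22-fold of each other. Cd163 (chr6:124304656-124330527, plus strand) encodes the receptor through which macrophages take up haemoglobin-haptoglobin complexes. It had 16, 14 and 8 counts in the Ctrl lenses, the most of any member but Il4ra when summed, and 346, 337 and 184 counts in the Qk-iCKO lenses. The fitted log2 fold change was 4.66 ± 0.35.

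Clec10a and Mgl2 encode the galactose-type lectins MGL1 and MGL2 and lie beside each other on chromosome 11, Mgl2 at chr11:70130329-70137550 and Clec10a at chr11:70156197-70170834, both on the plus strand. Mgl2 had 0 counts in every Ctrl lens and 209, 168 and 196 counts in the Qk-iCKO lenses, at least 213-fold higher against the floor of 3 counts over the group. Clec10a had 0, 1 and 0 counts in the Ctrl lenses and 94, 67 and 30 counts in the Qk-iCKO lenses, a ratio of rates of 213 with a counting interval of 37.7 to 8441. Both genes were thus nearly or fully undetected in the Ctrl lenses at this depth. Their longest transcripts were 94.3% identical over 810 aligned bases, with an identical run of 183 bases, so the split of reads between them is uncertain. The intervals and floors here and above cover counting error only.

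Il4ra (chr7:125552120-125579474, plus strand) encodes the receptor chain that IL-4 and IL-13 share. It had 16, 16 and 20 counts in the Ctrl lenses and 159, 173 and 101 counts in the Qk-iCKO lenses, or 1.28 ± 0.123 against 12.2 ± 3.91 CPM. The fitted log2 fold change was 3.24 ± 0.28, the smallest of the 10, and Il4ra had the most Ctrl counts of any member. Folr2 (chr7:101839988-101857194, minus strand) encodes folate receptor beta, which marks tissue macrophages. It had 4, 1 and 0 counts in the Ctrl lenses and 62, 64 and 42 counts in the Qk-iCKO lenses, a ratio of rates of 37.4 with a counting interval of 15.7 to 117. Folr1, the related folate receptor alpha gene, was measured at 855 to 976 counts in the Ctrl lenses and 803 to 1174 counts in the Qk-iCKO lenses, and its log2 fold change was 0.32 ± 0.17 (edgeR adjusted p = 0.27). Folr2 shares 975 and Il4ra 571 exonic bases with genes on the opposite strand, and whether the counting used strand is not given in the sources used here.

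F13a1 (chr13:36867178-37050244, minus strand) encodes the A subunit of coagulation factor XIII, a transglutaminase that macrophages also make. It had 6, 7 and 9 counts in the Ctrl lenses and 56, 106 and 25 counts in the Qk-iCKO lenses. The fitted log2 fold change was 3.29 ± 0.60, and the Qk-iCKO lenses differed by up to 4.06-fold, the widest spread of the 10. Without Qk-iCKO lens 2 the fitted log2 fold change was 2.45. F13a1 was the one member that lost its call when any single Ctrl lens was left out. The members were chosen on this contrast, so the calls that the others kept are description and not a test.

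Compared per kilobase of exonic sequence, Retnla stood first in the Qk-iCKO lenses at 473 CPM per kb (422 to 507 over the 3 libraries), followed by Chil3 at 185 (105 to 303) and Arg1 at 65.2 (33.2 to 84.4). The 3 libraries of each of these genes did not overlap those of the next in order. Mgl2 at 7.78 (6.12 to 9.45) and Mrc1 at 7.24 (6.39 to 7.77) CPM per kb overlapped each other and lay above Cd163 at 4.42 (3.40 to 5.97). Cd163, Folr2 at 3.07, Il4ra at 2.04, Clec10a at 1.76 and F13a1 at 0.802 CPM per kb formed a run in which each neighbour overlapped the next. In the Ctrl lenses the order was different: Il4ra at 0.213 (0.190 to 0.229) and Cd163 at 0.175 (0.101 to 0.243) CPM per kb had the highest means, and their libraries overlapped.

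**Figure D2:**
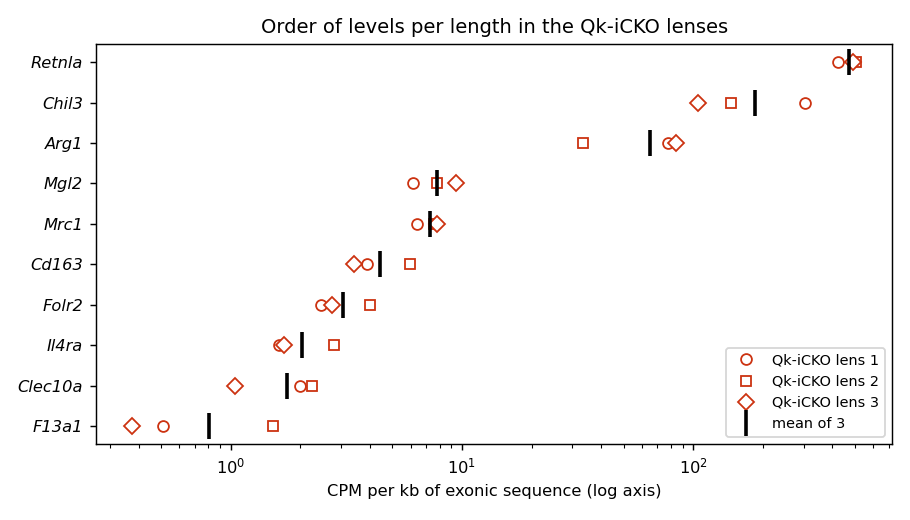
Level of the 10 genes in each Qk-iCKO lens as CPM per kb of exonic sequence on a log axis, with the mean of 3 libraries as a black bar, ordered by the mean. Retnla, Chil3 and Arg1 are separated from each other and from the rest, while neighbours from Cd163 down to F13a1 overlap.

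The libraries did not keep 1 order across the members. Qk-iCKO lens 1 had the highest CPM for 1 gene, Chil3, and the lowest for 5. Qk-iCKO lens 2 was highest for 6, among them F13a1, Folr2 and Il4ra, and Qk-iCKO lens 3 was highest for Arg1, Mrc1 and Mgl2. The excess of Qk-iCKO lens 1 in summed level came from Chil3, at 495 CPM against 238 and 171 CPM in the other lenses of the group. That lens is the library with the pigmented epithelium markers, and whether the 2 go together was not tested.

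Genes that macrophages of any state carry were higher in the same libraries. Of 20 pan-macrophage genes, 16 were called higher in Qk-iCKO lenses and 4 did not pass the filter on low counts. Most of the 16 passed that filter only through the Qk-iCKO lenses, where they were high, so their count is not set against the 8.38% called higher over all genes. With at least 10 counts required in every library, 1 was tested and called. The complement genes C1qc (log2 fold change 6.70 ± 0.38, adjusted p = 1.8e-04) and C1qa (6.10 ± 0.36, adjusted p = 1.8e-04) and the signalling adaptor Tyrobp (6.24 ± 0.66, adjusted p = 0.0017) rose most. Csf1r, the receptor for the growth factor that macrophages depend on, went from 8, 14 and 26 counts to 405, 382 and 349 counts (log2 fold change 4.78 ± 0.34, adjusted p = 5.5e-04). Adgre1, which encodes F4/80, rose by 5.46 ± 0.52 on the log2 scale, Cd68 by 6.05 ± 0.58 and the lysozyme gene Lyz2 by 3.99 ± 0.41. Mertk had the weakest call, lost when any single Ctrl lens or Qk-iCKO lens 1 or 3 was left out.

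The alternatively activated genes were higher by more than the pan-macrophage genes, as sums. The pan-macrophage sum was 4.97, 6.49 and 9.06 CPM in the Ctrl lenses and 204, 215 and 251 CPM in the Qk-iCKO lenses, a ratio of means of 32.6 beside 239 for the 10 members. The ratio of the member sum to the pan-macrophage sum was 0.783, 0.527 and 0.364 in the Ctrl lenses and 4.99, 3.51 and 3.03 in the Qk-iCKO lenses. This shift was carried by some members. Retnla, Chil3 and Arg1 made up 86.5% of the summed mean CPM of the 10 in the Qk-iCKO lenses. Fitted log2 fold changes of Il4ra (3.24), F13a1 (3.29), Cd163 (4.66) and Folr2 (5.14) lay below the pan-macrophage median of 5.55, those of the other members above it. Relative to the pan-macrophage sum, Retnla went from 0 in each Ctrl lens to 1.17 to 1.41 and Mrc1 from 0.0606 to 0.0879 to 0.197 to 0.225. Chil3 was at 0.0110 to 0.0167 in the Ctrl and 0.683 to 2.43 in the Qk-iCKO lenses, and Arg1 at 0 to 0.00758 and 0.345 to 0.850. Cd163 went from 0.0606 to 0.267 in the Ctrl lenses to 0.0741 to 0.152 in the Qk-iCKO lenses, so its groups overlapped on this scale. Those of Folr2 overlapped too, at 0 to 0.0667 in the Ctrl lenses and 0.0169 to 0.0289 in the Qk-iCKO lenses. Il4ra was lower relative to the pan-macrophage sum in the Qk-iCKO lenses (0.0407 to 0.0780) than in the Ctrl lenses (0.152 to 0.267), and so was F13a1 (0.0101 to 0.0478 against 0.0682 to 0.100). The members were chosen on this contrast, so these ratios carry no test.

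**Figure D3:**
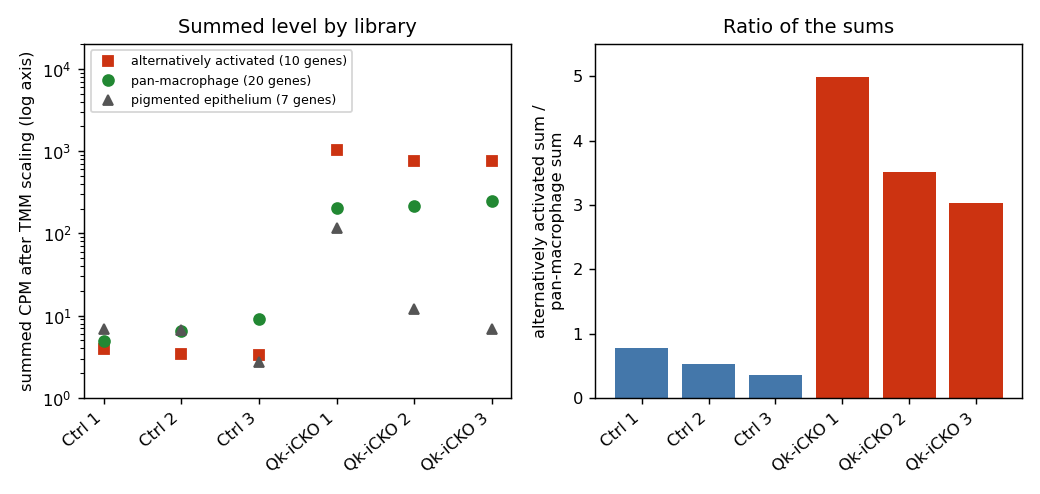
Left, summed CPM after TMM scaling, on a log axis, of the 10 alternatively activated genes, 20 pan-macrophage genes and 7 pigmented epithelium genes in each lens library. Right, the ratio of the first sum to the second, which is 0.364 to 0.783 in the Ctrl lenses and 3.03 to 4.99 in the Qk-iCKO lenses.

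Over the 6 lens libraries, 441 of 12201 genes tested had a Pearson correlation of at least 0.95 with the mean standardised log level of the 10 members. The 5 closest outside the gene lists used here were Pirb, an inhibitory receptor of myeloid cells (r = 0.9998), the immunoproteasome subunit gene Psmb8 (0.999), the eosinophil-associated ribonuclease gene Rnase2a (0.999), the C-type lectin gene Clec4a3 (0.998) and B2m, the light chain of MHC class I (0.998). Pirb, Rnase2a and Clec4a3 were at 0 in all Ctrl lenses. These correlations describe 6 libraries in 2 groups and mainly reflect the step between the groups.

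Of a second set of 18 genes reported to respond to IL-4 in macrophages, 9 were called higher, 2 were tested and not called, and 7 did not pass the filter. Several of the 9 had 0 to 5 counts over the Ctrl lenses and passed only through the Qk-iCKO lenses, so here too the count is not set against the background. With at least 10 counts in every library, 3 of 5 were called. The 2 not called were among the best measured: the arginine transporter gene Slc7a2 at 1980, 2139 and 1942 against 2990, 1384 and 1157 counts (log2 fold change -0.05 ± 0.20) and the E-cadherin gene Cdh1 at 346, 392 and 387 against 585, 211 and 295 counts (0.05 ± 0.21). The eosinophil-attracting chemokine gene Ccl24 was at 0 in the Ctrl lenses and at 250, 175 and 86 counts in the Qk-iCKO lenses, at least 189.6-fold higher (adjusted p = 0.0012). Tgm2, which encodes tissue transglutaminase, went from 1, 4 and 0 to 801, 166 and 845 counts (log2 fold change 8.56 ± 0.93, adjusted p = 0.0019). Atp6v0d2, a subunit of the vacuolar proton pump, went from 0 to 122, 11 and 88 counts, at least 82.0-fold higher (adjusted p = 0.020), and lost its call when any single Ctrl lens was left out. The chemokine genes Ccl17 and Ccl22 were at 0 in all 6 libraries.

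Of 18 genes of IL-4 and IL-13 signalling, 7 were called higher, 5 were tested and not called, and 6 did not pass the filter. Il13ra2 and Socs1, at 0 and 10 counts over the Ctrl lenses, passed only through the Qk-iCKO lenses. The count is therefore not set against the 8.38% called higher over all genes. DESeq2 called 12, and with at least 10 counts in every library 5 of 9 were called. Il13ra2, the decoy receptor for IL-13, was at 0 in the Ctrl lenses and at 30, 15 and 11 counts in the Qk-iCKO lenses, at least 20.8-fold higher (adjusted p = 0.0060). Klf4, a transcription factor that cooperates with STAT6 in macrophages, went from 16, 11 and 10 to 686, 163 and 311 counts (log2 fold change 5.01 ± 0.45, adjusted p = 9.5e-04). Il4, the cytokine gene itself, was measured in all libraries, at 13, 15 and 50 counts in the Ctrl lenses and 158, 135 and 203 counts in the Qk-iCKO lenses (log2 fold change 2.92 ± 0.50, adjusted p = 0.010), while Il13 was at 0 in all 6. Stat6 went from 23, 26 and 19 to 170, 49 and 46 counts (log2 fold change 1.98 ± 0.39, adjusted p = 0.017). The calls of Stat6 and Socs1 were lost when any single Ctrl lens was left out, those of Il4 and Jak2 without Ctrl lens 1, and 3 of the 7 calls stood without that lens. Irf4 (0, 0 and 1 against 6, 10 and 15 counts), Pparg (0, 0 and 1 against 3, 1 and 2 counts) and Il13ra1 (2, 1 and 1 against 13, 18 and 5 counts) did not reach the filter.

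Of 18 resident macrophage genes, 7 were called higher and 4 were tested and not called. Several of the 7 had 0 to 5 counts over the Ctrl lenses and passed the filter only through the Qk-iCKO lenses, and with at least 10 counts in every library 1 of 5 was called. The list's summed level, 576 to 765 CPM in the Ctrl lenses and 574 to 777 CPM in the Qk-iCKO lenses, overlapped between groups. Most of that sum came from Maf (20827 counts over the Ctrl and 15194 over the Qk-iCKO lenses) and Gas6 (4973 and 4281). Neither was called, and the sum says little about the other genes of the list. The chemokine gene Ccl8 was at 0 in the Ctrl lenses and at 62, 107 and 25 counts in the Qk-iCKO lenses, at least 72.0-fold higher (adjusted p = 0.010). Fcna, which encodes the lectin ficolin A, went from 1 count over the Ctrl lenses to 56, 75 and 28 counts (adjusted p = 0.0022), and the sialic acid-binding receptor gene Siglec1 rose by 5.85 ± 0.52 on the log2 scale (adjusted p = 8.8e-04). Lyve1, a hyaluronan receptor of perivascular macrophages and lymphatic vessels, went from 5, 8 and 3 to 98, 129 and 48 counts (4.26 ± 0.52, adjusted p = 0.0031). Vsig4, Marco and Cd209g were at 0 in all 6 libraries.

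Genes of classical activation, the state that interferon-gamma and bacterial products induce, were low in count. Of 20 listed, 1 passed the filter, the transcription factor gene Irf5. Irf5 went from 0, 5 and 0 to 51, 23 and 29 counts (log2 fold change 4.40 ± 0.81, adjusted p = 0.014). It passed only through the Qk-iCKO lenses, where it was high, and lost its call without Ctrl lens 1. Nos2, the inducible nitric oxide synthase that shares its substrate with arginase 1, was at 0 in the Ctrl lenses and at 2, 3 and 1 counts in the Qk-iCKO lenses. Il1b was at 1, 2 and 6 against 1, 2 and 0 counts, and Tnf was at 0 in all 6 libraries. Other members were detected mainly in the Qk-iCKO lenses without passing the filter. The costimulatory receptor gene Cd40 was at 0 in the Ctrl lenses and at 8, 7 and 7 counts, at least 8.16-fold higher, and Cd86 at 0 against 4, 5 and 3 counts. Ptgs2, which encodes cyclooxygenase-2, was at 0, 0 and 1 against 8, 13 and 2 counts, a ratio of rates of 25.6 with a counting interval of 4.16 to 1055. Cd38 was at 1, 1 and 3 against 24, 27 and 6 counts and Gbp2 at 7, 2 and 1 against 17, 24 and 8 counts. DESeq2 called 4 genes of the list. The list's summed level was 0.713 to 0.912 CPM in the Ctrl lenses and 5.96 to 10.3 CPM in the Qk-iCKO lenses. At 0 in all 6 libraries were 5 of the 19 listed in the table.

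**Figure D4:**
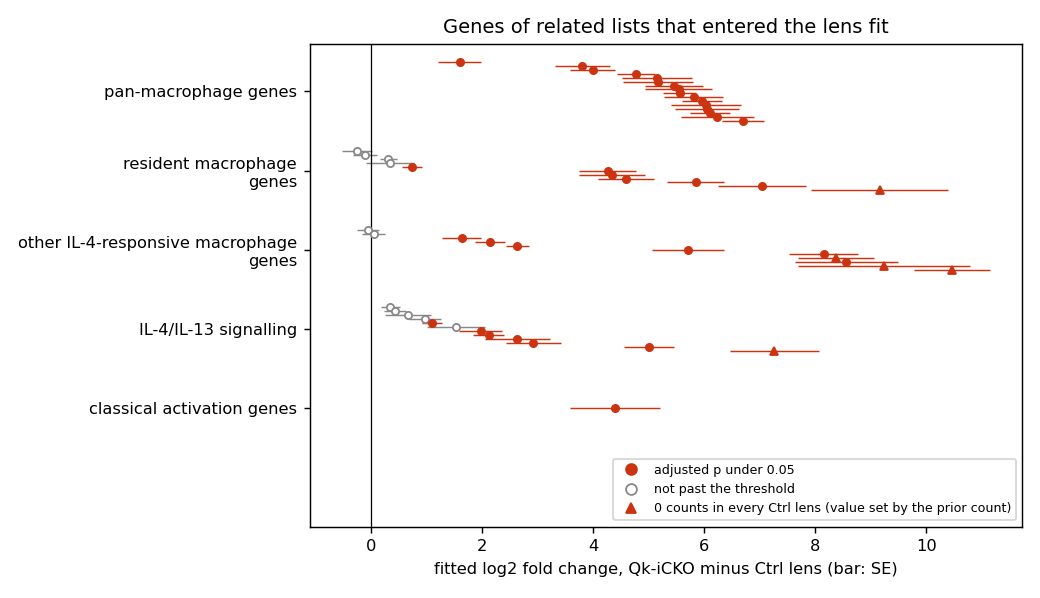
Fitted log2 fold change (Qk-iCKO minus Ctrl lens, bar: SE) of the genes of 5 related lists that passed the filter on low counts, filled red where the adjusted p was under 0.05 and as triangles where all Ctrl lenses had 0 counts. All 16 pan-macrophage genes lie right of 0, the other lists hold genes near 0 as well, and 1 classical activation gene passed the filter.

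Markers of other cells that could accompany macrophages moved unevenly. Of 14 genes of type 2 cytokine source cells (eosinophils, mast cells, basophils and innate lymphoid cells), 7 were at 0 in all 6 libraries, among them Epx, Cpa3 and Fcer1a, and the 2 that passed the filter, Gata3 and Il33, were called neither by edgeR without a block (1 at an unadjusted p under 0.05) nor by DESeq2, which called 1 other gene of the list. Il33, an alarmin, was at 75, 85 and 3 against 959, 603 and 18 counts, low in library 3 of both groups (log2 fold change 3.27 ± 1.23, adjusted p = 0.13, and 1.3e-04 in the blocked fit, which pairs libraries by number). Il1rl1, which encodes the receptor of IL-33, was at 0, 0 and 1 against 61, 9 and 14 counts, a ratio of rates of 93.5 with a counting interval of 16.3 to 3736. The list's summed level was 3.09 to 10.4 CPM in the Ctrl lenses and 7.98 to 66.4 CPM in the Qk-iCKO lenses. Most of that sum came from Il33 (163 counts over the Ctrl and 1580 over the Qk-iCKO lenses) and Gata3 (142 and 132). The sum therefore says little about the other genes of the list. Of 7 neutrophil genes, S100a8, S100a9, Ly6g, Mpo and Elane were at 0 throughout. Csf3r rose from 0 to 21, 21 and 14 counts (at least 20.8-fold, adjusted p = 0.0057). It passed the filter only through the Qk-iCKO lenses, where it was high. Of 8 lymphocyte genes 1 passed the filter and was called neither by edgeR, also unadjusted, nor by DESeq2, with summed levels of 0.746 to 1.43 and 0.909 to 2.61 CPM. The microglia markers Siglech and Tmem119 were at 0 to 2 counts. Endothelial Pecam1 and Tek were called higher, with a list sum of 4.64 to 9.82 CPM in the Ctrl lenses and 16.0 to 26.4 CPM in the Qk-iCKO lenses. So were the pericyte gene Cspg4, the fibroblast gene Col3a1 and the progenitor gene Nes. The pericyte sum overlapped (20.6 to 35.3 against 24.1 to 27.0 CPM). Over the 3 libraries Pdgfrb was at 687 against 274 counts and Abcc9 at 57 against 26, neither called, while counts of the other pericyte genes rose. The fibroblast sum was 63.7 to 79.2 against 104 to 173 CPM, and the progenitor and astrocyte sum overlapped (108 to 123 against 119 to 166 CPM). The lens gene Mip was called lower (log2 fold change -1.69 ± 0.37, adjusted p = 0.026). The calls of Pecam1, Tek, Cspg4, Col3a1 and Mip were each lost when Ctrl lens 1 or Ctrl lens 2 was left out. Those of Cspg4 and Mip were also lost without Ctrl lens 3, those of Pecam1 and Cspg4 without Qk-iCKO lens 1, and those of Pecam1 and Mip without Qk-iCKO lens 3. The call of Col3a1 was lost without any 1 of the 6 libraries and held in 3 of 13 alternatives. The part of these cells in the members' levels was not tested.

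Of the 13 paralogs of the members 2 passed the filter and none was called by edgeR (1 at an unadjusted p under 0.05 and 3 by DESeq2, which adjusted 4). Retn, Retnlb and Retnlg, relatives of Retnla, were at 0 or 1 counts in every lens library. Chil1, a relative of Chil3, was at 8, 11 and 3 counts in the Ctrl lenses and at 691, 915 and 4 counts in the Qk-iCKO lenses, so that it was high in 2 of the 3 and low in Qk-iCKO lens 3, and it did not pass the filter. Mrc2, a relative of Mrc1, differed by 2.06 ± 0.63 on the log2 scale (adjusted p = 0.079, and 0.036 in the blocked fit).

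In NLPCs, a culture grown from neural stem cells, the members that did not pass the filter were at or near the lower limit of detection. Retnla was at 0 in all 6 libraries, and a count of 3 over the WT group would be 0.0167 CPM. Arg1 and Folr2 had 3 counts each over all 6 libraries. Chil3 was at 0, 6 and 9 counts in WT NLPCs and 0, 0 and 10 in the libraries labelled Qk-/-. Mrc1 was at 4, 10 and 1 against 5, 33 and 10 counts, with most of the latter in Qk-/- library 2, the shallowest of the 6. Clec10a and Mgl2 had up to 6 and 7 counts in any library and F13a1 up to 18. All of these groups overlapped. Of the 2 members that passed the filter, Cd163 was at 59, 52 and 108 against 77, 54 and 105 counts (log2 fold change 0.45 ± 0.41), also overlapping, and neither was called by edgeR or DESeq2 (1 had an unadjusted p under 0.05), beside 10.7% of 20371 genes (4.74% higher and 5.96% lower). Groups did not overlap for 35.2% of the genes tested. Of 20 pan-macrophage genes 9 passed the filter in NLPCs and none was called by edgeR or DESeq2 (1 at an unadjusted p under 0.05), with C1qa at 0 throughout.

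In HLE-B3 cells the 6 upper-case members were likewise sparse. ARG1 was at 0 in all 6 libraries, F13A1 and FOLR2 had 1 count each in total, and CLEC10A was at 1, 18 and 4 counts in WT and 0, 7 and 4 in QKI KO cells. MRC1 was at 0, 14 and 0 against 8, 3 and 5 counts, and MRC1L1, a near-identical copy of MRC1 in GRCh37, was at 0, 8 and 0 against 10, 6 and 20 counts, so reads of the pair may have been split or dropped. CD163, the 1 member that passed the filter, was at 12, 1 and 7 against 12, 14 and 0 counts (log2 fold change 0.48 ± 1.14) and was not called by edgeR or DESeq2, nor at an unadjusted p under 0.05, beside 33.3% of 19049 genes (17% higher and 16.3% lower). The groups of all 6 genes overlapped, where 44.6% of the genes tested had groups that did not. In libraries of at least 69190864 counts none of the 6 exceeded 18 counts. The ratio of rates, QKI KO to WT, was 1.20 for MRC1 (exact counting interval 0.549 to 2.65) and 0.502 for CLEC10A (0.221 to 1.07), intervals that leave out the variation between libraries.

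The IL-4 receptor alpha chain is the one member well measured in all 3 systems, under the human symbol IL4R in HLE-B3 cells. In NLPCs Il4ra was at 4.43, 3.90 and 4.92 CPM in WT and 6.24, 5.74 and 7.93 CPM in the libraries labelled Qk-/-, with no overlap, a log2 fold change of 0.59 ± 0.20. Il4ra was not called by edgeR in NLPCs, where groups did not overlap for 35.2% of the genes tested. In the lens its log2 fold change was 3.24 ± 0.28. In HLE-B3 cells IL4R (chr16:27324989-27376099, GRCh37, plus strand) went the other way, from 19.5, 20.1 and 23.6 CPM in WT to 15.2, 14.2 and 16.9 CPM without QKI, or -0.45 ± 0.10 on the log2 scale. IL4R was not on the symbol list and was added for this comparison, and its edgeR adjusted p was 0.0025. Of all genes tested in HLE-B3 cells, 33.3% were called and 44.6% had groups that did not overlap. CPM was scaled within each system, so levels are not comparable between them, and the difference between systems was not tested.

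**Figure D5:**
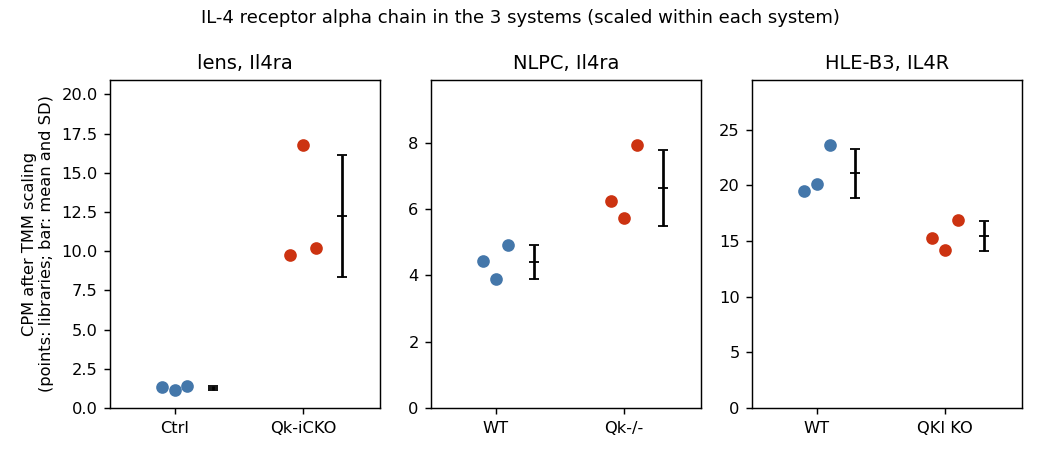
CPM after TMM scaling of Il4ra in lens and NLPC libraries and of IL4R in HLE-B3 libraries (points: libraries, bar: mean and SD of 3), each panel with its own axis from 0. The deletion libraries lie above the controls in lens and NLPCs and below them in HLE-B3 cells.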

How the data were processed

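Libraries were stranded, paired-end RNA-seq. The authors aligned reads with STAR 2.6.1b to mm10 or hg19 and deposited raw counts per gene made with HTSeq 0.11.0; the submitters' processing notes also name HISAT2 2.0.4 and featureCounts without a role. Each table was fitted by itself with edgeR 4.0.16 (R 4.3.3): genes were kept by filterByExpr (minimum count 10, minimum total 15), scaled by TMM and tested by the quasi-likelihood F test, deletion against control, with Benjamini-Hochberg adjustment over all genes tested and a threshold of 0.05. CPM was taken on the TMM-scaled library size. No column of the tables was left unused. Ratios of pooled counts have exact 95% conditional binomial intervals (scipy 1.17.1), and a group at 0 was set to 3 counts over its 3 libraries. Positions and exonic lengths came from GENCODE M21 (GRCm38) and 44 lifted to GRCh37, promoters from RefSeq, and transcript identities from local alignment with Biopython 1.88. DESeq2 1.42.0, other scalings and filters, a replicate block and leaving out each library were alternatives. The fit was tested on simulated data.

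The members and all other gene lists were chosen with earlier results of these data known. Named beside the 10 members were the genes past the threshold with the 3 largest changes per direction in each other list, 14 fixed genes of IL-4 signalling, macrophages and classical activation, IL4R, and the 5 genes most correlated with the members. Chil1, Chil4, Folr1, Arg2, Mrc2, Slc7a2, Cdh1, Cd40, Cd86, Ptgs2, Cd38, Gbp2, Gata3, Il33, Il1rl1, Maf, Gas6, Pdgfrb, Abcc9 and genes named as at 0, as background or for a lost call were named after their values were seen. Same-numbered libraries deviated together in the lens (correlations 0.233, 0.133 and 0.523) and NLPCs (0.123, 0.320 and 0.145) but not in HLE-B3 cells (0.0613, 0.0566 and -0.0495); the labels give no reason for a pairing. Single results of some list genes are not reported here.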

Additional observations from a re-analysis of the deposited data

Results flagged for a closer look

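The IL-4 receptor alpha chain moved in opposite directions in 2 systems. Il4ra was higher in every Qk-iCKO lens than in every Ctrl lens (log2 fold change 3.24 ± 0.28), whereas IL4R was lower in every QKI KO HLE-B3 library than in every WT library (log2 fold change -0.45 ± 0.10). Groups did not overlap for 35.3% of the genes tested in the lens and 44.6% of those in HLE-B3 cells. The systems differ in species, in cell makeup and in how the gene was deleted, and the difference between them was not tested.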

How the results depend on the processing

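All 121 alternative values of the members' log2 fold changes in the lens stayed above 0, and none of any system reversed a call. In the lens 9 or 10 members were called in each setting except at least 10 counts in every library. There Il4ra alone was tested and called. The members were chosen on this lens contrast, which largely fixes these results, so they carry no test. In NLPCs 1 of 4 members tested was called without Qk-/- replicate 2, and otherwise 0. With total counts alone the median log2 fold change of all lens genes was 0.29 and the lens calls numbered 884 (768 higher and 116 lower) against 1496 (1023 and 473). Testing every gene with at least 1 count gave 2521 lens calls, 14 IL-4-responsive, 12 IL-4 and IL-13 signalling and 6 classical activation genes. Requiring at least 10 counts in every library left 1 pan-macrophage, 1 resident, 3 IL-4-responsive and 0 classical activation genes called, since 1, 5, 5 and 0 of them were then tested. The DESeq2 Wald test gave 12 signalling, 4 classical activation and 3826 NLPC genes against 2179. Leaving out 1 library gave 581 to 1709 lens, 681 to 3797 NLPC and 4959 to 6036 HLE-B3 calls against 6341, with 15 to 16 pan-macrophage, 6 to 8 resident, 7 to 10 IL-4-responsive, 3 to 9 signalling and 0 to 2 classical activation genes. The lens minimum came without Ctrl lens 1, the NLPC maximum without Qk-/- NLPC 2. With the replicate block 1982 lens (1436 shared with the unblocked fit), 2018 NLPC (1765 shared) and 5901 HLE-B3 genes (5801 shared) were called. The block removed no member's call and no list gene's call named here except that of Col3a1 (adjusted p = 0.062). It added calls, among genes named here, for Il33 (1.3e-04), Mrc2 (0.036) and Pdgfrb (0.041). The causes were not tested. Depth limits every gene under about 10 counts a library.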
